A study of Mus musculus with 12 samples.

Results

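The retinoid synthesis and response genes described here are 9 genes chosen by symbol for their place in retinoic acid biology: the retinol transporter gene Stra6, the retinal dehydrogenase genes Aldh1a1, Aldh1a2 and Aldh1a3, the binding protein genes Crabp1 and Crabp2, the receptor genes Rara and Rarb, and the degrading enzyme gene Cyp26b1. They are 9 of the 52636 genes in each of the 2 deposited expression tables, and the rule that picks them uses symbols and no measured value. Bulk RNA-seq, an average over all cells of a culture, was available for 12 libraries, 3 in each of 4 groups: SMCs and PDGFR-β+ cells, each given scrambled RNA (Scr) or a small interfering RNA against Klf4 (siKlf4). KLF4 is a zinc-finger transcription factor, and the comparison asked which genes respond to its loss in each of these mesenchymal cell types.

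The SMCs are primary mouse airway smooth muscle cells bought from Cell Biologics, of the C57BL/6 strain, and the labels give their tissue as trachea and no age. The PDGFR-β+ cells came from lungs of mice that the labels describe as C57BL/6 and 12 weeks old. By the study's methods, these were Zs+ cells sorted by flow cytometry from animals carrying the tamoxifen-inducible Pdgfrb-CreERT2 and a ROSA26R(Zs/+) reporter, so the population holds whichever lung cells had used the Pdgfrb promoter, and it was expanded in culture before use. The labels give the genotype as WT for the Scr libraries of PDGFR-β+ cells and as Klf4 KD for siKlf4-treated cells, which refers to the knockdown. Both cell types were serum starved for 2 h, kept with 50 nM RNA for 6 h and grown for a further 72 h.

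Retinoic acid is made in cells from vitamin A. STRA6 lets retinol in from its carrier in blood, short-chain dehydrogenases oxidise retinol to retinal, and the ALDH1A enzymes oxidise retinal to retinoic acid in a step that cannot be reversed. Within the cell, CRABP2 delivers retinoic acid to nuclear receptors, whereas CRABP1 is mostly linked to its retention and breakdown. The receptors (RARs, paired with RXRs) switch genes on when retinoic acid is bound, and CYP26 enzymes destroy it. In the lung, ALDH1A2 is known from the mesenchyme and mesothelium of the developing organ, and retinoic acid is known for its part in forming alveoli.

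Levels are given in TPM, short for transcripts per 1000000, in which reads are divided by transcript length and every library is scaled to the same total, so that levels of different genes can be compared. The unit holds no record of sequencing depth, so counting error is unknown and precision rests on the 3 libraries of a group. All p-values for treatment are from limma on log2(TPM + 1), for genes averaging 1 TPM or more across a cell type (6 libraries), with Benjamini-Hochberg adjustment over all genes tested and a threshold of 0.05. Fold changes on the log2(TPM + 1) scale understate the change of genes near 1 TPM. The paper describes the 3 libraries of a group as independent experiments. Nothing in the sources says that they came from separate animals, so the p-values measure the spread between these libraries. In the SMC table, 1 Scr and 1 siKlf4 library carry no replicate number and are called unnumbered here.

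Klf4 itself fell in every siKlf4 library. Scr-treated SMCs held 89.6 to 96.3 TPM, against 20.5 ± 5.31 TPM (SD, n = 3) after siKlf4. Scr-treated PDGFR-β+ cells held 134.5 to 146.1 TPM, against 13.0 ± 0.782 TPM (SD, n = 3) after siKlf4. This left 21.9% and 9.16% of the Scr mean. The fall was larger in PDGFR-β+ cells, with a difference of 1.19 in log2 fold change between the cell types (SE 0.19, limma adjusted p = 6.90e-04), and its part in the differences between cell types given below was not tested. Summed smooth muscle markers were lower in the Scr-treated SMCs (1449 to 2235 TPM over 8 genes) than in the Scr-treated PDGFR-β+ cells (5521 to 6361 TPM), which goes against the cell type labels. Most of that sum was Acta2 and Tagln, with Scr means of 1373 and 425.4 TPM in SMCs and 4369 and 1505 TPM in PDGFR-β+ cells. The Scr means of Myh11, Cnn1, Actg2 and Lmod1 were also lower in SMCs, whereas those of Des and Myocd, both low, were higher in SMCs. Fibroblast markers summed to 2775 TPM or more in every library. Pericyte markers summed to 470.1 to 510.3 TPM in Scr-treated PDGFR-β+ cells and 246.7 to 253.8 TPM in Scr-treated SMCs, with Higd1b listed at 0 throughout. Most of that sum was Pdgfrb, with Scr means of 447 TPM in PDGFR-β+ cells and 214.3 TPM in SMCs. The Scr means of Cspg4 and Rgs5 were also higher in PDGFR-β+ cells, whereas those of Notch3, Kcnj8, Abcc9 and Cox4i2 were higher in SMCs. Epithelial markers did not exceed 1.30 TPM in sum.

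siKlf4 lowered retinoid genes in both cell types, and Aldh1a2 and Crabp2 fell in each. In SMCs, 3 of the 7 members tested fell (Aldh1a1, Aldh1a2, Crabp2), against 12.9% of all genes tested, and none rose, against 15.6%. In PDGFR-β+ cells, 3 of the 8 members tested fell (Aldh1a2, Crabp2, Rarb), against 15.3% of all genes, and none rose, against 25.3%. At an unadjusted p under 0.05 in limma, 2 members were higher in SMCs and 3 in PDGFR-β+ cells. A term in the fit for the 2 unnumbered SMC libraries brought the members called in SMCs to 5, with Rara and Cyp26b1 higher. That term also raised the share of all genes called in SMCs from 28.5% to 40.1%. Both of the members that fell in the 2 cell types, of the 7 tested in each, belong to a class holding 3.82% of the 13032 genes tested in both. Crabp2 in both cell types and Rarb in PDGFR-β+ cells passed the filter on low values only through their Scr libraries, and Crabp1 in PDGFR-β+ cells only through its siKlf4 libraries. Aldh1a3 in SMCs and Stra6 in both cell types were under the filter and were not tested. In bulk RNA, fewer cells of a type and less RNA per cell cannot be told apart.

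**Figure D1:**
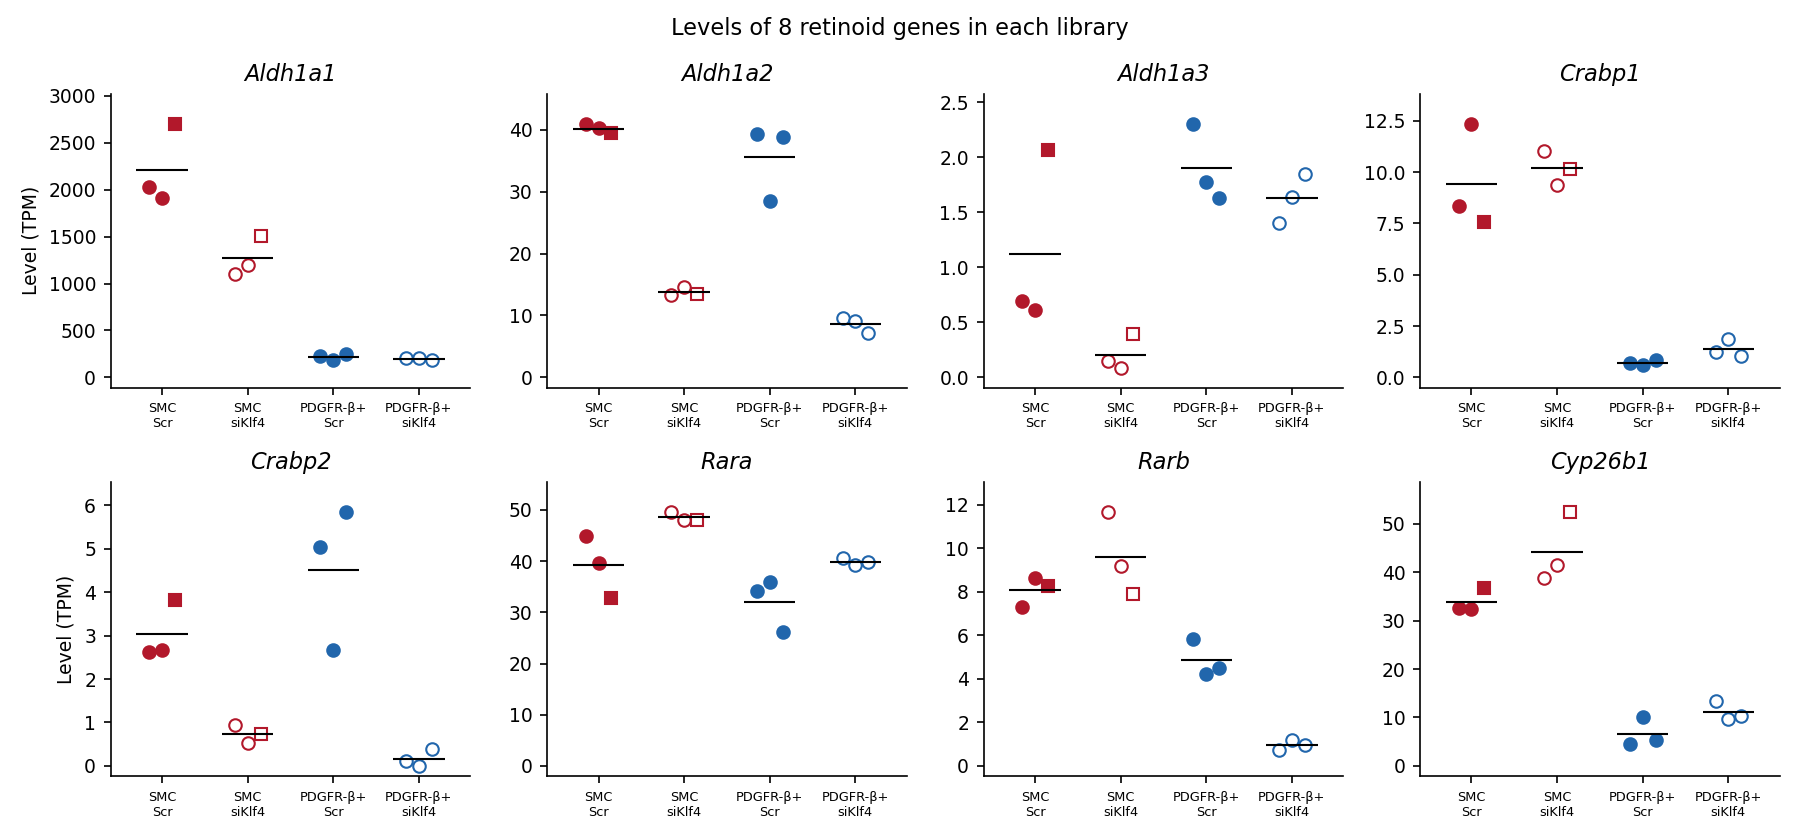
Level in TPM (vertical axes, each including 0 and scaled to its gene) of 8 retinoid genes in each of 12 libraries; filled symbols are Scr and open symbols siKlf4, squares are the unnumbered SMC libraries, and black lines are means of 3. Aldh1a2 and Crabp2 are lower with siKlf4 in both cell types, Rarb is lower in PDGFR-β+ cells, and Aldh1a1 is lower in SMCs, where its level is far above that of PDGFR-β+ cells.

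The uptake gene was barely detected. Stra6, the membrane receptor for the retinol carrier, was listed at 0 in 9 of the 12 libraries, and the other 3 held 0.0727 TPM (SMC Scr replicate 3), 0.0521 TPM (PDGFR-β+ siKlf4 replicate 2) and 0.0301 TPM (PDGFR-β+ siKlf4 replicate 3). The gene is at chr9:58063788-58153996 on the plus strand (GRCm38), where it overlaps Ccdc33 on the other strand and Gm16131, both listed at 0 in every library.

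Aldh1a1 encodes the retinal dehydrogenase that is the most abundant ALDH1A transcript in these cells, and it lies at chr19:20492715-20643465 on the plus strand. In SMCs it was at 2700, 2024 and 1908 TPM with Scr (unnumbered, replicate 2, replicate 3) and at 1511, 1106 and 1196 TPM with siKlf4. The groups did not overlap, and the unnumbered library was the highest of each. Ranked among all genes, Aldh1a1 stood between 27th and 40th in the Scr-treated SMC libraries and between 53rd and 96th in the siKlf4-treated ones. It fell by 0.79 on the log2 scale (SE 0.163, limma adjusted p = 0.0127), to 57.5% of the Scr mean. In PDGFR-β+ cells the levels were 233, 190 and 245 TPM with Scr, against 209, 202 and 185 TPM with siKlf4 (replicates 1 to 3). These groups overlapped, and the log2 fold change of -0.16 had a 95% interval of -0.41 to 0.09 (limma adjusted p = 0.267). Without Scr replicate 2, the lowest of its group, it was -0.27 (adjusted p = 0.0357).

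Aldh1a2, the retinal dehydrogenase of embryonic mesenchyme, lies at chr9:71215789-71296243 on the plus strand and fell in both cell types. In SMCs it was at 39.4, 40.9 and 40.2 TPM with Scr and at 13.4, 13.3 and 14.6 TPM after siKlf4. The 3 libraries of each group lay within 2 TPM of each other, and the groups were far apart. The fall was 1.48 on the log2 scale (SE 0.076, limma adjusted p = 4.37e-04), leaving 34.2% of the Scr mean. In PDGFR-β+ cells, Aldh1a2 was at 39.3, 28.5 and 38.8 TPM with Scr and at 9.55, 9.15 and 7.21 TPM after siKlf4. The lowest Scr library, replicate 2, was still well above every siKlf4 library, and the gene fell by 1.92 (SE 0.154, limma adjusted p = 1.11e-04) to 24.3% of the Scr mean. A fall of at least 1 on the log2 scale in both cell types was shared by 64 of the 13032 genes tested in both (0.491%), among them Aldh1a2 and Crabp2. Crabp2 was tested only because its Scr libraries passed the filter. The share describes the same values as the falls and is not a test of them.

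Aldh1a2 is known as a gene of mesothelium. Mesothelial markers fell with it in PDGFR-β+ cells and were mixed in SMCs. The 6 genes of that list (Msln, Upk3b, Lrrn4, Wt1, Upk1b and Krt19) summed to 66.5 to 90.7 TPM with Scr and 25.8 to 31.8 TPM with siKlf4 in PDGFR-β+ cells. The 5 tested there all fell, against 15.3% of all genes. In SMCs, 3 were tested, beside 12.9% of all genes that fell and 15.6% that rose. Msln fell from 19.1 to 7.14 TPM (limma adjusted p = 0.0043) and Wt1 from 1.69 to 0.844 TPM (limma adjusted p = 0.0402). Krt19, a keratin also found in epithelium, rose from 3.62 to 20.0 TPM (limma adjusted p = 9.04e-04). The sum of the list in SMCs, 21.6 to 31.9 TPM with Scr and 26.3 to 33.7 TPM with siKlf4, overlapped. It adds the rise of Krt19 to the falls of the others tested. Msln in PDGFR-β+ cells and Wt1 in SMCs passed the filter on low values only through their Scr libraries. The part of these markers in the fall of Aldh1a2 was not tested.

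Other marker lists were mixed as well. Of the 7 smooth muscle markers tested, 6 rose in SMCs, against 15.6% of all genes, and none fell, against 12.9%. In PDGFR-β+ cells Acta2, Tagln and Des fell, beside 15.3% of all genes. Myh11 and Lmod1 rose there, as both did in SMCs, beside 25.3% of all genes. The sum of the smooth muscle list, which rests mainly on Acta2 and Tagln, went to 3326 to 4097 TPM in SMCs and to 4657 to 4967 TPM in PDGFR-β+ cells. Of the macrophage markers, Ptprc and Adgre1 were at or near 0 in both cell types. The sum of that list in SMCs (45.6 to 49.6 TPM with Scr and 25.2 to 29.8 TPM with siKlf4) was mostly Cd14, which fell from 41.0 to 22.1 TPM there (limma adjusted p = 0.00197) and rose from 6.88 to 10.5 TPM in PDGFR-β+ cells (limma adjusted p = 0.0027). In PDGFR-β+ cells the sum was 35.7 to 37.2 TPM with Scr and 29.2 to 34.0 TPM with siKlf4, with Lyz2 and Csf1r lower. Des and Csf1r passed the filter on low values in PDGFR-β+ cells only through their Scr libraries. The part of these lists in the results on retinoid genes was likewise not tested.

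Aldh1a3, the third retinal dehydrogenase gene (chr7:66390890-66427517, minus strand), was low. In SMCs it was at 2.06, 0.693 and 0.611 TPM with Scr and at 0.391, 0.148 and 0.0816 TPM after siKlf4, with the unnumbered library the highest of each group. The groups did not overlap, but the gene was under the filter, and the exact two-sided permutation test gave p = 0.1, the smallest that 3 libraries against 3 allow. The PDGFR-β+ libraries held 2.30, 1.77 and 1.63 TPM with Scr and at 1.41, 1.64 and 1.85 TPM after siKlf4. These overlapped (log2 fold change -0.14, limma adjusted p = 0.513).

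Because Aldh1a1 dominated the sum of the 3 transcripts, the fall of Aldh1a2 changed the makeup of that sum mainly in PDGFR-β+ cells. There, Aldh1a2 made up 12.9% to 14.3% of the summed Aldh1a TPM with Scr and 3.72% to 4.35% with siKlf4. In SMCs the share was 1.44% to 2.06% with Scr and 0.878% to 1.21% with siKlf4. The sum itself was 1949 to 2742 TPM with Scr and 1120 to 1525 TPM with siKlf4 in SMCs, which did not overlap, and 220.5 to 285.0 TPM and 193.7 to 219.6 TPM in PDGFR-β+ cells, which missed overlapping by less than 1 TPM.

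Among the binding proteins, Crabp2 fell in both cell types and Crabp1 did not pass the threshold in either. Crabp2 (chr3:87948666-87953376, plus strand), whose protein carries retinoic acid to its receptors, was at 3.82, 2.61 and 2.67 TPM with Scr and at 0.745, 0.945 and 0.526 TPM after siKlf4 in SMCs. It fell by 1.21 on the log2 scale (SE 0.181, limma adjusted p = 0.0045), and 24.4% of the Scr mean was left. The PDGFR-β+ libraries were at 5.03, 2.67 and 5.83 TPM with Scr and at 0.110, 0 and 0.382 TPM after siKlf4. All 3 siKlf4 libraries were below the lowest Scr library, replicate 2, and the fall was 2.21 (SE 0.261, limma adjusted p = 6.34e-04). With a pseudocount of 0.1 TPM in place of 1, this value was -4.34, since the siKlf4 libraries are close to 0.

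Crabp1 (chr9:54764748-54773110, plus strand), whose protein binds retinoic acid in the cytoplasm, was at 7.59, 8.35 and 12.4 TPM with Scr and at 10.2, 11.0 and 9.36 TPM after siKlf4 in SMCs, where the groups overlapped (log2 fold change 0.13, 95% interval -0.29 to 0.54, limma adjusted p = 0.618). In PDGFR-β+ cells it was at 0.690, 0.605 and 0.873 TPM with Scr and at 1.26, 1.88 and 1.04 TPM after siKlf4. All 3 siKlf4 libraries were above all Scr libraries, at levels near 1 TPM, and the log2 fold change was 0.46 (SE 0.186, limma adjusted p = 0.0833).

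The receptors differed from each other. Rara, the most widely expressed retinoic acid receptor gene (chr11:98927818-98974942, plus strand), was at 32.9, 44.9 and 39.7 TPM with Scr and at 48.1, 49.5 and 48.0 TPM after siKlf4 in SMCs. In PDGFR-β+ cells it was at 34.2, 35.9 and 26.2 TPM with Scr and at 40.6, 39.3 and 39.9 TPM after siKlf4. In both cell types the siKlf4 libraries lay above the Scr libraries and within 2 TPM of each other, but the log2 fold changes of 0.31 (limma adjusted p = 0.08) and 0.32 (limma adjusted p = 0.0685) did not pass the threshold. In SMCs Rara passed with the term for the unnumbered libraries (0.31, limma adjusted p = 0.0396) and without Scr replicate 2 (0.42, limma adjusted p = 0.0429), and in PDGFR-β+ cells without Scr replicate 2 (0.40, limma adjusted p = 0.0395). Non-overlap of this kind held for 5 of the 7 members tested in SMCs, against 47.1% of all genes, and for 5 of the 8 tested in PDGFR-β+ cells, against 53.8%.

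Rarb, a receptor gene that retinoic acid is known to induce, responded in PDGFR-β+ cells. It is at chr14:16430839-16819156 on the minus strand. With Scr it was at 5.83, 4.22 and 4.49 TPM in PDGFR-β+ cells and with siKlf4 at 0.731, 1.21 and 0.941 TPM. Every siKlf4 library was below every Scr library, 19.8% of the Scr mean was left, and the log2 fold change was -1.57 (SE 0.165, limma adjusted p = 3.66e-04). In SMCs Rarb was at 8.28, 7.32 and 8.65 TPM with Scr and at 7.91, 11.6 and 9.17 TPM after siKlf4. These groups overlapped, and the log2 fold change of 0.21 had a 95% interval of -0.14 to 0.56 (limma adjusted p = 0.33). Rarb overlaps the protein-coding gene Top2b on the other strand, and whether reads were assigned by strand is not stated in the sources used here. Top2b was at 59.1 ± 2.34 TPM with Scr and 58.5 ± 3.13 TPM with siKlf4 in PDGFR-β+ cells (SD, n = 3).

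The Rarb promoter is shown because it holds the element that retinoic acid receptors are best known to bind, a DR5 element: a pair of half-sites in the same direction with 5 bases between them. The half-site is AGGTCA, in which the first base could also be G and the third also T, and both strands were searched. Windows ran from 250 bases before to 50 bases after each RefSeq start site on GRCm38.p6. A DR5 element was found in 32 of 32851 such windows (0.0974%), among them 1 of the 14 windows of the members (7 of the 9 members had a window, and Crabp2 and Aldh1a3 had none). In Rarb it runs from -53 to -37 relative to the start site, at chr14:16575513-16575529 on the minus strand. Among 50 other retinoid pathway genes, only the window of Cyp26a1, a retinoic acid degrading enzyme gene, held one, of the 48 windows that 36 of these genes had. It runs from -32 to -16 at chr19:37697776-37697792 and reads on the strand opposite to the gene. The 2 elements and the 250 bases upstream of Rarb follow, with DR5 letters in capitals.
Rarb DR5 element: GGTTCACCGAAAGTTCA
Cyp26a1 DR5 element: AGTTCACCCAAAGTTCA
Rarb upstream window, chr14:16575477-16575726, minus strand: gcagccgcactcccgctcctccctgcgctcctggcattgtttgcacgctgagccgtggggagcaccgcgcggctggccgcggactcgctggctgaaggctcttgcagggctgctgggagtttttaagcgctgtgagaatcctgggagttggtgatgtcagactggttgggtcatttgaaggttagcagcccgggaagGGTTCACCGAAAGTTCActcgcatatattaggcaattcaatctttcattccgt

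Cyp26a1, with a DR5 element too, was hardly read in these cells. It was listed at 0 in the 3 Scr libraries of each cell type and did not exceed 0.262 TPM in any siKlf4 library. The letters CACCC, a core that KLF proteins are known to bind, were also searched on both strands. They occurred in 10 of the 14 windows of the members, among them overlapping windows of the same gene, and in 57.5% of all windows. The Rarb window and both Aldh1a1 windows held none. The Aldh1a2 window held 2 that overlap each other, between +40 and +48. A match describes these letters only, and no binding was measured in these libraries.

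Cyp26b1 encodes the enzyme that clears retinoic acid in many tissues (chr6:84571414-84593908, minus strand). In SMCs it was at 36.7, 32.5 and 32.4 TPM with Scr and at 52.3, 38.8 and 41.6 TPM after siKlf4. The siKlf4 libraries were all above the Scr libraries, but the log2 fold change of 0.37 did not pass (SE 0.123, limma adjusted p = 0.0629). A term for the 2 unnumbered libraries, the highest of each group, gave a limma adjusted p of 0.00873 at the same fold change, the numbered libraries alone gave 0.30 (limma adjusted p = 0.0337), and a block that pairs the SMC libraries, the unnumbered ones with each other, gave 0.37 (limma adjusted p = 0.02). Levels in PDGFR-β+ cells were 4.63, 10.0 and 5.28 TPM with Scr and at 13.4, 9.68 and 10.3 TPM after siKlf4. Here Scr replicate 2 lay among the siKlf4 libraries, and the log2 fold change of 0.72 did not pass either (SE 0.256, limma adjusted p = 0.0576). Without that library it was 1.02 (limma adjusted p = 0.00422).

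Scr replicate 2 of the PDGFR-β+ cells was thus the lowest of its group for Aldh1a1, Aldh1a2, Crabp1, Crabp2 and Rarb and the highest for Rara and Cyp26b1. Without it, 6 of the 8 members tested passed the threshold, 4 lower (Aldh1a1 added) and 2 higher (Rara and Cyp26b1). Of all genes, 38.6% were called without that library, against 40.6% with it.

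Without siRNA against Klf4, the cell types differed most in Aldh1a1, Crabp1 and Cyp26b1. The Scr means of Aldh1a1 were 2211 ± 428 TPM in SMCs and 223 ± 28.7 TPM in PDGFR-β+ cells (SD, n = 3), a ratio of 9.93. Crabp1 was at 9.43 ± 2.56 TPM and 0.723 ± 0.137 TPM, a ratio of 13.1, and Cyp26b1 at 33.8 ± 2.44 TPM and 6.64 ± 2.93 TPM, a ratio of 5.10. Rarb was 1.67 times as high in SMCs. These comparisons cross 2 tables of cells that were obtained and grown differently and were not tested, and the libraries of the 2 cell types did not overlap for these 4 genes. Non-overlap held for 5 of 8 members that averaged 1 TPM or more with Scr in either cell type, close to the 58.6% of all such genes. The fifth was Aldh1a2, at a ratio of 1.13, and its ranges overlapped after median-ratio scaling. Rara, Crabp2 and Aldh1a3 overlapped, at ratios of 1.22, 0.673 and 0.590.

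The order of levels was much alike at the top. In Scr-treated SMCs it ran Aldh1a1, Aldh1a2, Rara, Cyp26b1, Crabp1, Rarb, Crabp2, Aldh1a3 and Stra6, and the libraries of neighbours overlapped for Aldh1a2 and Rara, for Rara and Cyp26b1, and for Crabp1 and Rarb. In Scr-treated PDGFR-β+ cells it ran Aldh1a1, Aldh1a2, Rara, Cyp26b1, Rarb, Crabp2, Aldh1a3, Crabp1 and Stra6, with overlap for Aldh1a2 and Rara, for Cyp26b1 and Rarb, and for Rarb and Crabp2. With siKlf4, Aldh1a2 stood below both Rara and Cyp26b1 in each cell type, and none of those neighbours overlapped with it. In PDGFR-β+ cells Crabp2 was then next to last, at 0.164 ± 0.197 TPM (SD, n = 3), and Rarb just above it at 0.959 ± 0.238 TPM.

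**Figure D2:**
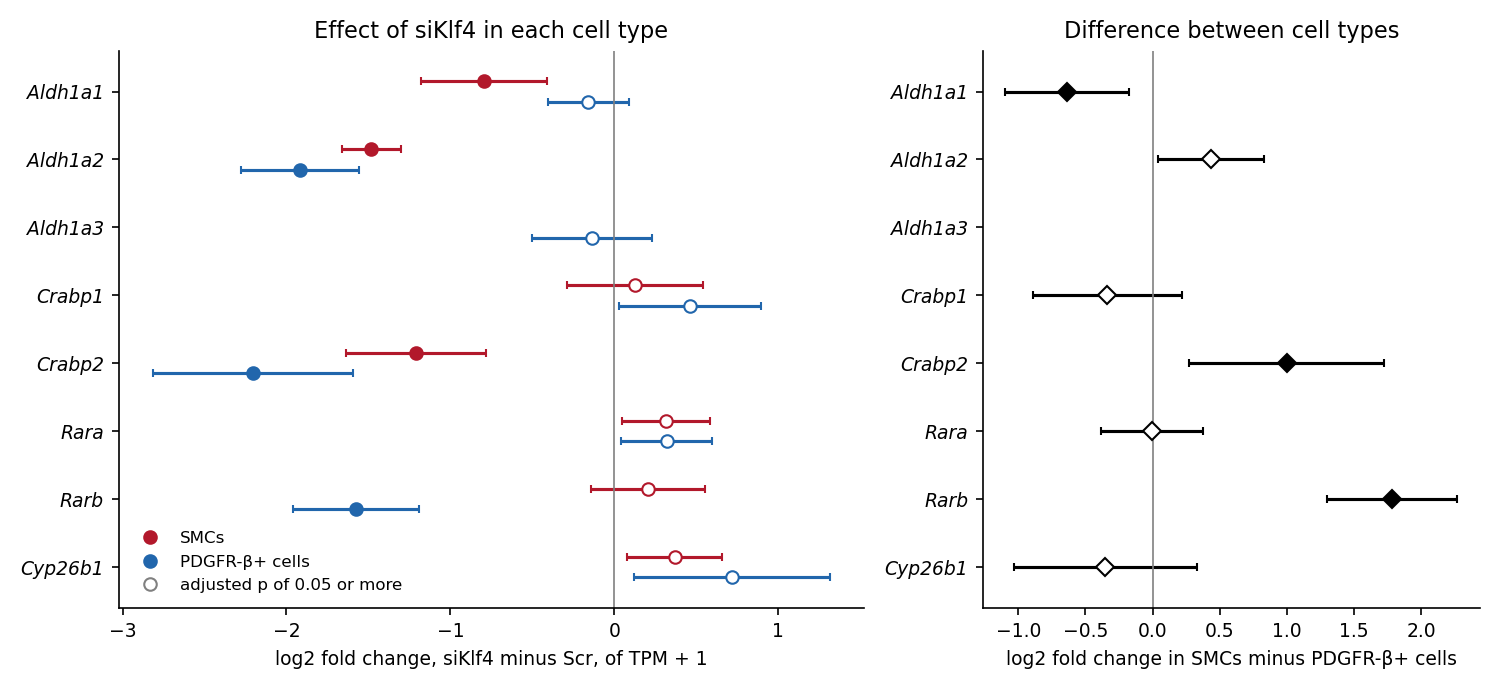
Left, log2 fold change of TPM + 1 (siKlf4 minus Scr) of the members tested in SMCs (red) and PDGFR-β+ cells (blue); right, the fold change in SMCs minus that in PDGFR-β+ cells. Points are limma estimates from 3 libraries per group, bars are 95% intervals, and filled symbols have an adjusted p under 0.05. Rarb, at 0.21 in SMCs and -1.57 in PDGFR-β+ cells, has the largest difference of the 7 members tested.

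A difference between SMCs and PDGFR-β+ cells in the response to siKlf4 was found for 3 of the 7 members tested in both, against 33.0% of all genes (14.5% with a higher fold change in SMCs and 18.5% with a lower one). Rarb differed by 1.78 on the log2 scale (SE 0.222, 95% interval 1.30 to 2.27, limma adjusted p = 1.32e-04) and passed under each of the 20 alternatives run on it, with values from 1.65 to 2.46. Aldh1a1 differed by -0.635 (SE 0.21, limma adjusted p = 0.0373), falling more in SMCs, and Crabp2 by 0.999 (SE 0.331, limma adjusted p = 0.0374), falling more in PDGFR-β+ cells. Both are close to the threshold: Aldh1a1 missed it under 9 of 21 alternatives, among them median-ratio scaling (-0.56, limma adjusted p = 0.0631), and Crabp2 under 10 of 20, most of them with 1 library left out. Rarb was the single member called without PDGFR-β+ Scr replicate 1, PDGFR-β+ siKlf4 replicate 1 or 2, or SMC siKlf4 replicate 2. Aldh1a2 fell in both, with a difference of 0.43 (95% interval 0.04 to 0.83, limma adjusted p = 0.0857). For Rara the difference was near 0, with a 95% interval of -0.39 to 0.38 (limma adjusted p = 0.989), for Crabp1 it was -0.34 (-0.89 to 0.22, limma adjusted p = 0.329), and for Cyp26b1 -0.35 (-1.03 to 0.33, limma adjusted p = 0.411).

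The libraries of PDGFR-β+ cells differ from those of SMCs in the centre of all genes. The median log2 fold change of all genes tested was 0.02 in SMCs and 0.10 in PDGFR-β+ cells, so changes in the latter lie about 0.10 lower when read against it. Median-ratio scaling moved that median to -0.004 and the share of higher genes among all called from 62.3% to 46.9% in PDGFR-β+ cells, and for the difference between cell types from 43.9% to 54.7%. The members called in SMCs and in PDGFR-β+ cells were the same under this scaling, with Rarb at -1.64, Aldh1a2 at -2.02 and Crabp2 at -2.25 in PDGFR-β+ cells.

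The other genes of the retinoid pathway moved both ways. Of the 50 listed, 31 were tested in SMCs, where 2 rose and 9 fell, and 29 in PDGFR-β+ cells, where 4 rose and 8 fell, beside the 28.5% and 40.6% of all genes called in either direction. By direction, 15.6% of all genes rose and 12.9% fell in SMCs, and 25.3% rose and 15.3% fell in PDGFR-β+ cells. The 11 calls in SMCs became 5 to 12 with 1 library left out (7 without Scr replicate 2 or siKlf4 replicate 3, 5 without siKlf4 replicate 2). The median log2 fold change of the list was -0.22 in SMCs and 0.03 in PDGFR-β+ cells, beside 0.02 and 0.10 over all genes. Of the 29 tested in both, 4 fell in both (among them Dhrs3, Rarres1 and Rxra), 1 went opposite ways (Nrip1), and none rose in both, also at an unadjusted p under 0.05 in limma. The background shares are 3.82%, 4.24% and 6.00%.

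Of the genes of retinol and retinal handling, upstream of the ALDH1A step, 12 were tested in each cell type. In SMCs 3 fell (Dhrs3, Retsat and Dhrs9) and none rose, and in PDGFR-β+ cells 4 fell (Dhrs3, Rdh5, Rdh11 and Dhrs4) and 1 rose (Adh7), near the shares of all genes called. Apart from Dhrs3 and Adh7, these were named after their values were seen. Retsat, a retinol saturase gene, fell by 0.82 in SMCs (limma adjusted p = 0.00495) and Rdh5, a retinol dehydrogenase gene, by 0.69 in PDGFR-β+ cells (limma adjusted p = 0.0104). Dhrs3 encodes a reductase that turns retinal back to retinol and is known to be induced by retinoic acid. In PDGFR-β+ cells it was at 62.8, 43.8 and 65.6 TPM with Scr and at 10.9, 10.8 and 12.2 TPM after siKlf4. It fell by 2.23 there (limma adjusted p = 5.69e-05) and by 0.84 in SMCs (limma adjusted p = 0.00396), where it went from 72.8 ± 7.86 to 40.4 ± 5.48 TPM (SD, n = 3). The difference between cell types was 1.39 (SE 0.21, limma adjusted p = 4.97e-04). Adh7, an alcohol dehydrogenase that can oxidise retinol, was at 4.56, 4.64 and 4.51 TPM with Scr and at 16.3, 20.0 and 20.2 TPM after siKlf4 in PDGFR-β+ cells. It rose by 1.83 (limma adjusted p = 3.11e-05), while in SMCs it went from 5.83 ± 1.75 to 3.03 ± 0.988 TPM (SD, n = 3, limma adjusted p = 0.0569, and 0.00795 with the block that pairs the SMC libraries), a difference of -2.58 (SE 0.283, limma adjusted p = 5.78e-05). Rdh10, the main retinol dehydrogenase of the embryo, did not pass in either (-0.05 and -0.38, limma adjusted p = 0.751 and 0.0842).

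Among the receptors, Rxra, the partner receptor, fell by 0.78 in SMCs (limma adjusted p = 0.00184) and by 0.27 in PDGFR-β+ cells (limma adjusted p = 0.0462), with a difference of -0.51 (limma adjusted p = 0.00877), and the second of these calls was lost under 7 of 13 alternatives. Rarg was the most abundant RAR gene, at 122.5 ± 5.46 TPM in SMCs and 103.6 ± 10.2 TPM in PDGFR-β+ cells with Scr (SD, n = 3). It fell by 0.22 in SMCs (limma adjusted p = 0.0383, lost under 6 of 16 alternatives) and was at -0.005 in PDGFR-β+ cells (limma adjusted p = 0.97, of either sign among the alternatives). Rxrb was at -0.005 and 0.06 (limma adjusted p = 0.978 and 0.581), also of either sign. Nrip1, a corepressor of nuclear receptors, fell by 0.53 in SMCs and rose by 0.50 in PDGFR-β+ cells (limma adjusted p = 0.0461 and 0.0019), and the SMC call was lost under 6 of 16 alternatives.

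Among genes known to be induced by retinoic acid, Tgm2 and Rarres1 fell in PDGFR-β+ cells and Rarres1 and Rarres2 fell in SMCs. Tgm2, the gene of tissue transglutaminase, was at 176.3, 149.0 and 147.2 TPM with Scr and at 43.4, 33.1 and 38.5 TPM after siKlf4 in PDGFR-β+ cells. It fell by 2.01 (limma adjusted p = 2.75e-05), while in SMCs it went from 358.0 ± 33.5 to 305.2 ± 14.0 TPM (SD, n = 3, log2 fold change -0.23, limma adjusted p = 0.0867). The difference of 1.79 (SE 0.153, limma adjusted p = 1.21e-05) stands beside 1.78 for Rarb. Rarres1 fell by 0.94 in SMCs and 1.20 in PDGFR-β+ cells (limma adjusted p = 0.0223 and 0.006), the first lost under 5 of 16 alternatives. Rarres2, the gene of the chemoattractant chemerin, fell by 1.39 in SMCs (limma adjusted p = 0.0186), from 8.39 ± 1.71 to 2.76 ± 1.50 TPM (SD, n = 3), and was under the filter in PDGFR-β+ cells. The call was lost under 3 of 16 alternatives, with adjusted p up to 0.0656. Of the 10 genes in this list, 2 fell and 1 rose in each cell type.

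**Figure D3:**
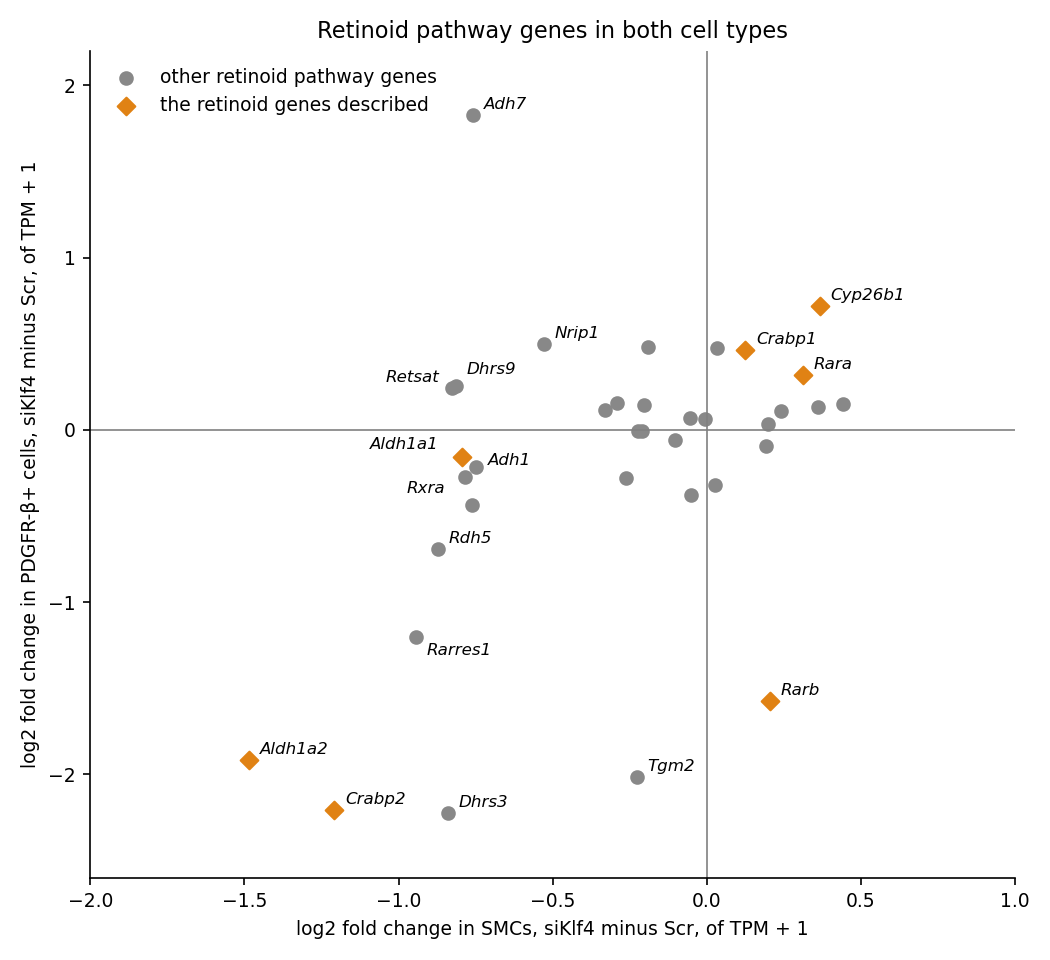
Log2 fold change of TPM + 1 (siKlf4 minus Scr) in SMCs (horizontal axis) against PDGFR-β+ cells (vertical axis) for 36 retinoid genes tested in both, 7 described individually (orange diamonds) and 29 others (grey circles), each from 3 libraries per group. Aldh1a2, Crabp2 and Dhrs3 lie low on both axes, Rarb and Tgm2 low on the vertical axis alone, and Adh7 at 1.83 in PDGFR-β+ cells and -0.76 in SMCs.

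Of the 29 other pathway genes tested for it, 9 had an effect that differed between the cell types (Dhrs3, Dhrs9, Adh7, Retsat, Rxra, Ncoa2, Nrip1, Tgm2 and Meis2), again close to the 33.0% of all genes. For 2 of these, Dhrs3 and Tgm2, the log2 fold change was lower in PDGFR-β+ cells than in SMCs, as for Rarb and Crabp2. For the rest (Dhrs9, Adh7, Retsat, Rxra, Ncoa2, Nrip1 and Meis2) it was lower in SMCs, as for Aldh1a1.

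Other genes followed the members closely over the 12 libraries. Likeness was measured as the root mean square difference in log2(TPM + 1) after each gene was centred on its own mean, over 12521 candidate genes, for the 6 members that spanned at least 2 on that scale. Such likeness rests on cell type and treatment, which all genes share, and is given with no test. Nearest to Aldh1a2 was Ablim3 (0.184), at 9.40 and 2.88 TPM in Scr- and siKlf4-treated SMCs and 7.79 and 1.89 TPM in PDGFR-β+ cells, followed by Arsi (0.249) and Mettl7a1 (0.254). Arsi was also the nearest to Crabp2 (0.321), before Scel (0.323) and Tnxb (0.329). Nearest to Rarb were Bnip3 (0.258), Slc33a1 (0.259) and Nxph4 (0.27). Bnip3 encodes a mitochondrial protein and is known to respond to hypoxia. It was at 214.7 ± 32.9 and 65.3 ± 4.35 TPM in PDGFR-β+ cells with Scr and siKlf4, and at 287.8 ± 15.5 and 499.3 ± 37.7 TPM in SMCs (SD, n = 3). The 3 nearest to Aldh1a1 were Sdk1 (0.178), Cyp7b1 (0.18) and Tspan13 (0.186), to Crabp1 Fam110c (0.214), Tsc22d3 (0.248) and Nt5e (0.253), and to Cyp26b1 Dlk2 (0.264), Apobec3 (0.269) and Fbn2 (0.28).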

How the data were processed

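Per the study's methods, reads from oligo-dT selected, strand-specific libraries were aligned to mm10 with HISAT2 and GENCODE annotation, and StringTie and ballgown gave abundances. The GENCODE release and the use of strand in counting are not given in the sources used here. The authors deposited TPM values, in a table for each cell type with a column for every library, and each library summed to 1000000. The study's own test (DESeq2) needs counts, which were not used here.

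Values were analysed as log2(TPM + 1) with limma 3.58.1 in R 4.3.3 (eBayes with a mean-variance trend, two-sided), each cell type on its own, and the difference as an interaction over 12 libraries for genes averaging 1 TPM or more in both cell types. The procedure was tested on simulated data. Alternatives were a pseudocount of 0.1, no filter, a minimum of 5 TPM, median-ratio scaling, no trend, a replicate block, a single fit, a term for the unnumbered SMC libraries, the numbered ones alone, each library left out and, chosen after seeing the data, a block that also pairs the unnumbered libraries. Pathway genes were named when past the threshold in both cell types, when past it in either with a log2 change of 1 or more, or as core genes (Rarg, Rxra, Rxrb, Rdh10, Dhrs3). Retsat, Dhrs9, Rdh5, Rdh11, Dhrs4, Ncoa2 and Meis2 meet none of these conditions and were named by their results. Cyp26a1 was named for its DR5 element. Some genes of the lists are counted but not reported individually here. The members and all lists were chosen with earlier results of these data known. Positions are from GENCODE M21, sequences from RefSeq on GRCm38.p6.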

Additional observations from a re-analysis of the deposited data

Results flagged for a closer look

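The response to siKlf4 differed between SMCs and PDGFR-β+ cells, by limma's interaction term over 12 libraries, for 3 of the 7 members tested, against 33.0% of all genes. Rarb fell in PDGFR-β+ cells and not detectably in SMCs, a difference of 1.781 in log2 fold change (adjusted p = 1.32e-04). Crabp2 fell more in PDGFR-β+ cells, by 0.999 (adjusted p = 0.0374). Aldh1a1 fell more in SMCs, by -0.635 (adjusted p = 0.0373). The Crabp2 call was lost under 10 of 20 alternatives, with values from 0.819 to 2.43, and the Aldh1a1 call under 9 of 21. Crabp2 in both cell types and Rarb in PDGFR-β+ cells passed the filter on low values only through their Scr libraries. The knockdown of Klf4 was itself deeper in PDGFR-β+ cells (21.9% left in SMCs and 9.16% in PDGFR-β+ cells), and its part in these differences was not tested.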

How the results depend on the processing

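Of 353 values for single members under the alternatives, 311 kept their direction and their side of the threshold, 19 lost the call, 13 gained it and 10 turned sign. The 3 falls in SMCs and the 3 in PDGFR-β+ cells kept their calls in every alternative in which the gene was tested, and the cause of the changes below was not tested unless stated. The count of members called in SMCs was 5 with a term for the unnumbered libraries (where 40.1% of all genes were called, against 28.5%) and 3 to 4 with 1 library left out. In PDGFR-β+ cells it was 1 with a minimum of 5 TPM, which leaves fewer genes, and 3 to 6 with 1 library left out (6 without Scr replicate 2). Members with a differing effect numbered 1 with no filter, 1 with a minimum of 5 TPM and 1 to 4 with 1 library left out (1 without PDGFR-β+ Scr replicate 1, PDGFR-β+ siKlf4 replicates 1 or 2, or SMC siKlf4 replicate 2). Other pathway genes called in SMCs numbered 6 with no filter and 5 to 12 with 1 library left out (7 without Scr replicate 2 or siKlf4 replicate 3, 5 without siKlf4 replicate 2), beside 11.

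Sign turned only for values near 0: Crabp1 in SMCs (-4.02e-04 with the replicate block and with the numbered libraries alone, -6.35e-04 without the unnumbered Scr library, and up to 0.32 with another library left out), the Rara difference (0.073 with scaling, -0.12 to 0.13 with 1 library left out), Rdh10 in SMCs (0.045 with the block and the numbered libraries, -0.12 to 0.041 with 1 left out), Rxrb in SMCs (0.026 with the block and the numbered libraries, -0.068 to 0.089 with 1 left out) and PDGFR-β+ cells (-0.045 with scaling), its difference (0.0096 with scaling, -0.13 to 0.028 with 1 left out), and Rarg in PDGFR-β+ cells (-0.087 to 0.0501 with 1 left out). The rule for pairing was a correlation over 0.1 in at least 3 numbered pairs. PDGFR-β+ cells did not meet it, as same-numbered deviations correlated at 0.066, -0.012 and -0.007. SMCs have only 2 numbered pairs, which correlated at 0.178 and 0.194. The rule could not be met there and so cannot decide whether the SMC libraries were paired. The main SMC fit has no pairing term. The 2 unnumbered SMC libraries, which share no number, correlated at 0.358, and no mismatched SMC pair exceeded 0.053, so that every SMC library correlated best within these pairs, a hint from the data and not from the labels. With the replicate block, 3 members were called in each cell type and 3 for the difference. A block that also pairs the unnumbered libraries, chosen after seeing the data, called 4 members in SMCs (Cyp26b1 added, higher), 3 for the difference and 15 other pathway genes in SMCs. It called 35.5% of all genes in SMCs, against 28.5% in the main fit. Leaving out a library leaves 2 in its group, and TPM gives no depth, so levels under about 1 TPM (Crabp2 with siKlf4 in both cell types, Crabp1 with Scr and Rarb with siKlf4 in PDGFR-β+ cells, Aldh1a3 in SMCs, Stra6) have unknown counting error.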
